A study of Mus musculus with 6 samples.

Results

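Interferon gamma and 5 genes that pass on or answer its signal were described in skin from the backs of SKH-1 mice, which are hairless and immunocompetent and are widely used in skin photobiology. The genes were chosen by name: Ifng as ligand, Stat2 and Irf1 as transducers, and Cxcl9, Cxcl10 and Iigp1 as targets. All 6 were found among the 254 genes of an nCounter inflammation panel for mouse, in which barcoded probes bind RNA and are counted without amplification. Of the STAT genes only Stat2 is covered here.

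The group irradiated and given BMS-202, called UV plus BMS-202 (3 samples), received 200 µl of 8 mM BMS-202 on the back 3 times. The applications fell 24 h before, 1 h before and directly after a single dose from a solar simulator (UVA 90 kJ/m2, UVB 6 kJ/m2). The UV group (3 samples) received the acetone vehicle at the same times and the same light, and full-thickness skin was taken from both groups 24 h after exposure. BMS-202 is a small molecule that binds PD-L1, the immune checkpoint ligand of PD-1. Both groups were irradiated, so a difference does not show where a gene stood before exposure. The labels give neither the age nor the sex of the animals. They state 3 mice a group without tying samples to mice, so all errors and p-values measure the spread between samples, which may be technical. None of the 8 keratinocyte and fibroblast markers listed for the tissue (0 of 8) was measured, so the skin label could not be checked against them.

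Interferon gamma is a cytokine made mainly by activated T cells and natural killer cells. Its receptor activates Janus kinases and STAT proteins, which bind GAS elements and induce Irf1. Irf1 and the STAT complexes then switch on chemokine genes such as Cxcl9 and Cxcl10, defence GTPases such as Iigp1, and antigen presentation. PD-L1 is itself a well known interferon gamma target, and Stat2 serves mainly the type I interferons, whose STAT2-containing complex binds ISRE elements that many of the same genes carry.

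The values are signals scaled so that the glycolytic gene Gapdh equals 6417 in every sample, and values below 20 are written as 20. Gene counts recovered from the scaling totalled 41537 to 45040 in UV plus BMS-202 samples and 142900 to 160891 in UV samples. The geometric mean of the positive spike-in controls was similar, at 2091 to 2251 counts in UV plus BMS-202 samples and 2060 to 2469 counts in UV samples. The single spike-ins did not move together. The ratio of group means, UV plus BMS-202 over UV, was 0.82 to 0.94 for POS_A to POS_D and 1.06 for POS_E. It was 1.56 for POS_F, the lowest, with 114 to 155 counts in UV plus BMS-202 samples and 76 to 102 in UV samples. The negative control limit, the mean of 8 negative probes plus 2 SD, was 34.5 to 37.9 counts in UV plus BMS-202 samples and 26.4 to 31.7 counts in UV samples. Single negative probes also differed, as NEG_G read 19 to 35 counts in UV plus BMS-202 samples and 4 to 8 in UV samples. Of 240 genes tested with limma (Benjamini-Hochberg adjusted p under 0.05), 38.3% were called higher with BMS-202 and 55% lower, 93.3% in all, so a call alone does not set a gene apart. The panel's median log2 difference was -0.56.

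The ligand and the 3 targets read higher with BMS-202 and both transducers read lower, so 4 of the 6 genes were called higher and 2 lower. Relative to Gapdh, Ifng rose at least 4.40-fold, Cxcl10 4.33-fold, Cxcl9 at least 2.85-fold and Iigp1 2.13-fold. Both bounds are set against 26.6, the highest negative control limit of the UV samples after scaling, since Ifng and Cxcl9 lay under it with UV. Irf1 fell 4.09-fold and Stat2 fell 2.53-fold relative to Gapdh. The rises kept their direction under all 6 ways of scaling the samples, whereas Irf1 and Stat2 turned to higher values when samples were scaled to the 6 housekeeping genes or to the 5 other than Gapdh. All 6 genes passed the filter of more than 20 in at least 3 samples, but Ifng and Cxcl9 did so through the UV plus BMS-202 samples, with 0 and 1 of 3 UV samples above 20, so their direction was largely fixed by the filter. The groups overlapped for none of these 6 genes. The same held for 95% of the tested genes, 38.8% higher and 56.2% lower with BMS-202, and with 3 samples against 3 an exact permutation test cannot give a p under 0.1.

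**Figure D1:**
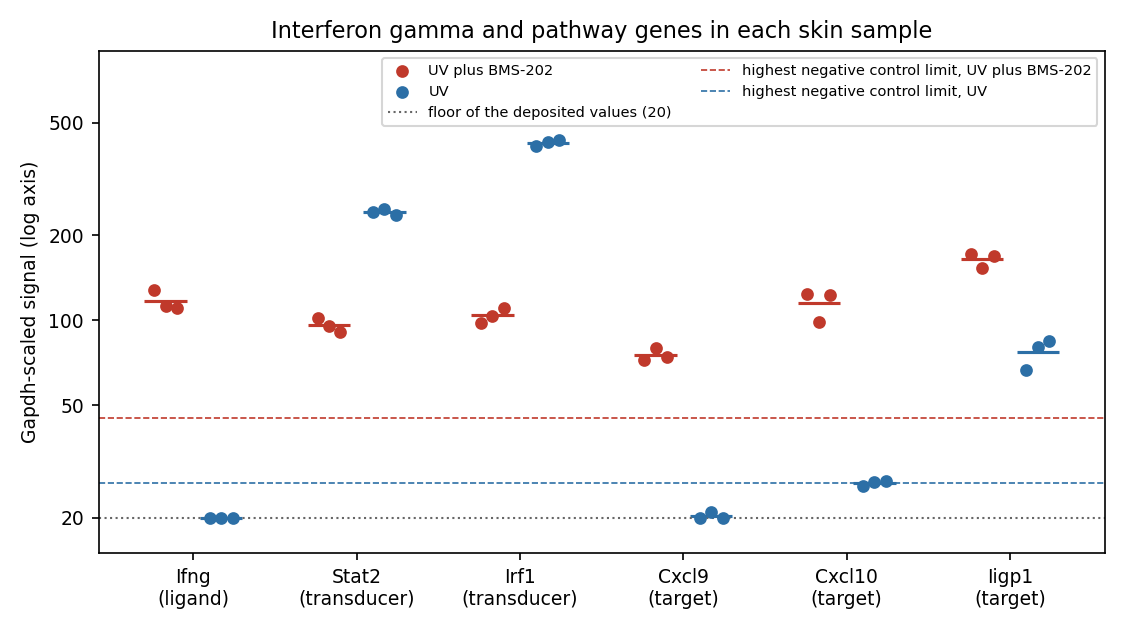
Gapdh-scaled signal (log axis) of each of the 6 genes in the 3 UV plus BMS-202 samples (red, left) and the 3 UV samples (blue, right), with a bar at the group mean and lines at the floor of 20 and at each group's highest negative control limit (45.3 with BMS-202 and 26.6 with UV). Ifng, Cxcl9, Cxcl10 and Iigp1 lie higher with BMS-202 and Stat2 and Irf1 lower relative to Gapdh (higher with housekeeping scaling), and all UV plus BMS-202 values lie between 72.7 and 172.

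Ifng, the ligand, read 128, 112 and 110 in UV plus BMS-202 samples and was listed at 20 in all 3 UV samples. The UV plus BMS-202 values averaged 117 ± 9.97 (SD, n = 3), at least 4.40 times the UV negative control limit of 26.6. The log2 difference, fitted with the UV samples at 20, was 2.49 ± 0.09 (SE, limma adjusted p = 1.22e-09), and it was 1.35 with all values below 45.3, the highest limit of the 6 samples, set to that limit. The values with BMS-202 stood for 106, 94 and 101 counts, well above the negative control limits of 34.5, 37.9 and 35.1 counts in the same samples. The lowest of these counts, 94, has an exact 95% Poisson interval of 76.0 to 115 counts, which covers counting error only. In UV samples the floor stood for 21.6 to 23.8 counts, under the negative control limit, so Ifng was not detectable above background there. Because the UV value could not read lower than the floor, this difference could only be upward. Of 45 genes listed at 20 in all UV samples, 38 read above it in every UV plus BMS-202 sample, and Ifng ranked 11 of 45 by log2 difference (median of the 45 genes 1.82).

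The listed and measured markers of cells that make interferon gamma read higher too. All 5 measured T and NK cell markers of a list of 14 were called higher (median log2 1.45), as they were under each other scaling but quantile normalization, which called 4. Over all tested genes 38.3% were called higher. Of the 5 markers, 3 were listed at 20 in all UV samples and could only rise, as 38 of 45 such genes did. The other 2 had UV means of 20 to 100, a range in which 48 of 63 genes read higher. The CD3 genes and Cd8a are not among those measured. Itgb2, a leukocyte integrin gene not on this list, was lower relative to Gapdh (log2 -3.03). The summed signal of the 5 was 370 to 383 in UV plus BMS-202 samples and 136 to 161 in UV samples. Fasl, a death ligand of cytotoxic lymphocytes, averaged 56.6 ± 5.59 with BMS-202 and was listed at 20 in all UV samples. Ccr4, a homing receptor of skin T cells, averaged 52.4 ± 4.61 and was also at 20 in all UV samples, as was Cd40lg. With BMS-202, Fasl and Ccr4 lay little above that group's highest negative control limit of 45.3. Ltb, a lymphotoxin subunit, averaged 73.1 ± 5.13 with BMS-202 and 23.3 ± 1.94 with UV. The part of these cells in the Ifng difference was not tested, and in whole skin more cells of a type and more RNA per cell cannot be told apart.

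Genes whose products induce interferon gamma were split. Of 9 listed inducers 8 were measured and 7 tested, with 5 called higher and 2 lower (median log2 1.89), against 38.3% higher, 55% lower and a median of -0.56 over all tested genes, and 5 were called higher under each of the 6 scalings. Of the 5, 3 were listed at 20 in all UV samples and could only rise. Il21, a T cell cytokine, averaged 159 ± 8.72 with BMS-202 against the floor with UV, and Il23a, a subunit of IL-23, averaged 127 ± 16.1 with BMS-202 and 20.3 ± 0.55 with UV. Il12b, a subunit of IL-12 and IL-23, averaged 92.4 ± 12.1 with BMS-202 and was at the floor with UV. Il18, which acts with IL-12 to drive interferon gamma production, went the other way, with 33.9 ± 5.00 with BMS-202, under the negative control limit, and 679 ± 36.2 with UV. Il18rap, a subunit of its receptor, averaged 105 ± 10.1 with BMS-202 and 27.9 ± 6.36 with UV.

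Irf1, a transcription factor that interferon gamma induces directly, read 98.1, 104 and 110 in UV plus BMS-202 samples, against 413, 430 and 434 in UV samples. The group means were 104 ± 6.09 with BMS-202 and 426 ± 10.8 with UV (SD, n = 3), a fall of 2.02 ± 0.07 on the log2 scale (limma adjusted p = 6.42e-10). Every UV sample read about 4 times the level of every UV plus BMS-202 sample. Per spike-in count, Irf1 in UV plus BMS-202 samples was 0.188 times its UV level.

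Stat2, the STAT protein gene of type I interferon signalling, read 102, 95.5 and 90.7 in UV plus BMS-202 samples, against 243, 248 and 237 in UV samples. The means were 96.0 ± 5.58 with BMS-202 and 243 ± 5.90 with UV, a fall of 1.33 ± 0.08 on the log2 scale (limma adjusted p = 3.85e-08). Per spike-in count Stat2 was 0.304 of its UV level. The samples of a group lay close together, and the highest UV plus BMS-202 sample was far below the lowest UV sample.

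These falls were of the size seen in other genes of the same UV level. Irf1 ranked 24 of 56 from the lowest among genes with UV means of 300 to 1000 (median log2 -1.80), of which 55 read lower in every sample. Stat2 ranked 15 of 58 from the lowest among genes with UV means of 100 to 300 (median log2 -0.81), of which 45 read lower in every sample.

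The housekeeping gene used as reference set the direction of both transducers. Set against single housekeeping genes, Irf1 was lower relative to Gapdh and the tubulin gene Tubb5, and Stat2 was lower relative to Gapdh while its groups overlapped relative to Tubb5. Both were higher relative to the other 4, the clathrin gene Cltc, Gusb, Hprt and Pgk1. Relative to Gapdh these reference genes fell themselves, Tubb5 2.33-fold, Hprt 6.32-fold, Pgk1 7.74-fold, Cltc 9.77-fold and Gusb 10.6-fold. With BMS-202, Gusb stood at 48 to 55 counts and Hprt at 51 to 52, against negative control limits of 34.5 to 37.9 counts. Ratios to Gusb and Hprt therefore rest on reference counts near background. The log2 differences of Irf1 were -2.03 against Gapdh, -0.81 against Tubb5 and 1.38 against Gusb, at the other end. Those of Stat2 were -1.34, -0.12 and 2.07 against the same genes. Scaled to the 6 housekeeping genes, Irf1 turned to 0.23 (adjusted p = 0.0238) and Stat2 to 0.92 (adjusted p = 8.83e-06). That scaling moved the panel's median by 1.91, so both genes then lay below the median of 1.35. With scaling to the positive spike-ins the differences were -2.40 for Irf1 and -1.71 for Stat2, against a panel median of -0.93. The ligand and targets were higher against each of the 6 housekeeping genes. The log2 differences of Iigp1 were 1.10 against Gapdh to 4.51 against Gusb, and those of Cxcl10 2.11 to 5.52 against the same genes.

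**Figure D2:**
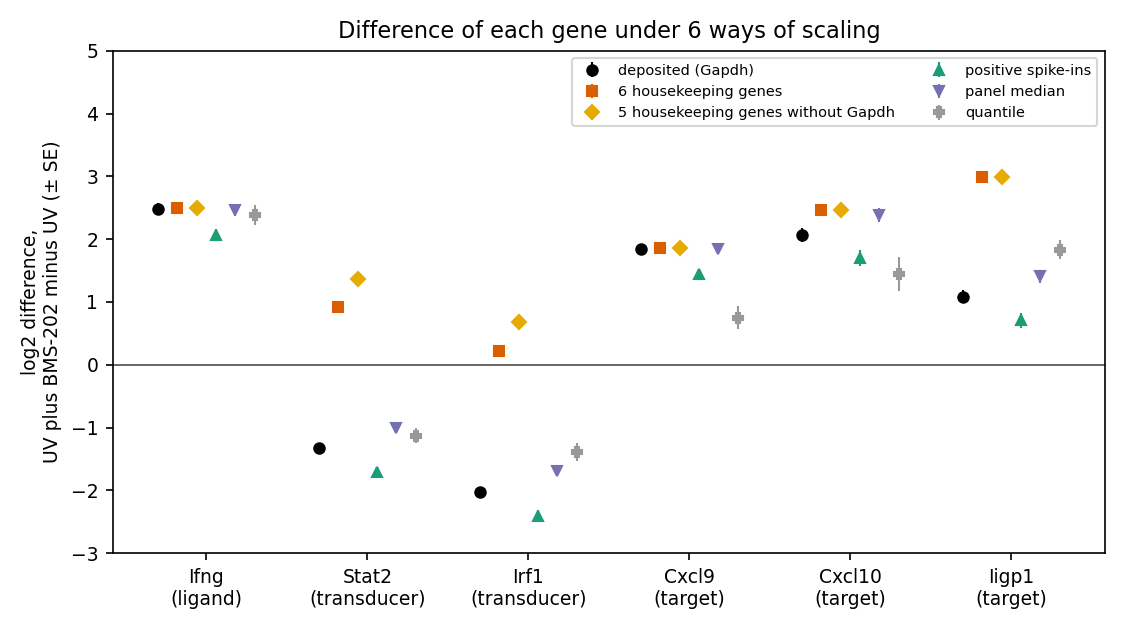
Log2 difference of each gene, UV plus BMS-202 minus UV (± SE, limma, n = 3 a group), under 6 ways of scaling the samples. Ifng, Cxcl9, Cxcl10 and Iigp1 stay above 0 under all 6, whereas Stat2 and Irf1 lie below 0 under 4 and above 0 under the 2 housekeeping scalings, at 0.92 and 1.37 for Stat2 and 0.23 and 0.68 for Irf1. With the housekeeping scalings the UV values of Ifng, Cxcl9, Cxcl10 and Iigp1 were raised to the rescaled floor, which limits their differences there.

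The promoters of the 2 transducers, which fell together relative to Gapdh, are shown with the interferon elements found in them. They are 300 bases around the RefSeq start (GRCm38.p6), from 250 before it, printed 5′ to 3′ on the gene's strand with the match in capitals. The motifs searched were GAS, TTCNNNGAA, which reads the same on both strands, and ISRE, searched as a GAAA half-site repeated after a gap of 2 bases, on either strand. GAS was found in 8.3% and ISRE in 3.44% of 32851 RefSeq mouse promoter windows of this length. The Irf1 window (chr11:53769764-53770063, plus strand, the first of 2 RefSeq starts) holds a GAS match at positions -90 to -82 and the Stat2 window (chr10:128270248-128270547, plus strand) an ISRE match on the opposite strand at -222 to -213. The second Irf1 start holds neither motif. The Ifng window, not printed, holds a GAS match at positions -249 to -241. A match is a description of these letters and not a measured binding site.
Irf1: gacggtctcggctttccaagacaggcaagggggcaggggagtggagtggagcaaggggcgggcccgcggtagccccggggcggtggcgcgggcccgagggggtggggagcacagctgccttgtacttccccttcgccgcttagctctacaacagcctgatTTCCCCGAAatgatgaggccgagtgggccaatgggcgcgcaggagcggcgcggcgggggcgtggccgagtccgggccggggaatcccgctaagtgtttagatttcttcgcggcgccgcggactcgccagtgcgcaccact
Stat2: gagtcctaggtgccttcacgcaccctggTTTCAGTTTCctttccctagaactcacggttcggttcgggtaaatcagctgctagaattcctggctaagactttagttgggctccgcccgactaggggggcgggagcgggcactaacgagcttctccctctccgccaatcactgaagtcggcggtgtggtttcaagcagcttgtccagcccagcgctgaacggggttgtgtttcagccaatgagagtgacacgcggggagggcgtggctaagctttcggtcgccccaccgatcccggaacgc

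Cxcl10 encodes a chemokine that attracts CXCR3-bearing T cells and is induced by both type I interferons and interferon gamma. It read 124, 99.0 and 123 in UV plus BMS-202 samples, against 25.95, 26.8 and 27.1 in UV samples. The means were 115 ± 14.1 with BMS-202 and 26.6 ± 0.59 with UV (SD, n = 3), a log2 difference of 2.07 ± 0.11 (limma adjusted p = 1.73e-08), or 1.32 with values below 45.3 set to that limit. The UV values stood for 28, 32 and 31 counts, each just above the limits of 27.6, 31.7 and 26.4 counts. The counts of 28 and 32 lay under the highest single negative probe of their samples, at 30 and 34 counts. Per spike-in count Cxcl10 was 3.34 times its UV level.

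Cxcl9 encodes a chemokine for the same receptor and depends more on interferon gamma. It read 72.7, 80.0 and 74.3 in UV plus BMS-202 samples, against 20, 21.0 and 20 in UV samples, 2 of which were at the floor. The mean with BMS-202 was 75.6 ± 3.82, at least 2.85 times the UV negative control limit of 26.6. The log2 difference, fitted with the UV values as listed, was 1.84 ± 0.08 (limma adjusted p = 4.23e-09). It was 0.75 with quantile normalization and 0.73 with values below 45.3 set to that limit. The 3 values with BMS-202 stood for 60, 67 and 68 counts. Even the lower Poisson bound of the smallest, 45.8 counts, lay above the highest negative control limit of 37.9 counts, whereas no UV sample was above its limit.

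Iigp1 encodes an interferon-inducible GTPase that disrupts the vacuoles of intracellular pathogens. It read 172, 153 and 169 in UV plus BMS-202 samples, against 66.7, 80.5 and 84.7 in UV samples. The means were 165 ± 10.4 with BMS-202 and 77.3 ± 9.40 with UV, a log2 difference of 1.09 ± 0.11 (limma adjusted p = 3.62e-06). The size depended on the scaling, at 2.99 with the 6 housekeeping genes, 1.83 with quantile normalization and 0.71 with the spike-ins. With housekeeping scaling the UV values of Iigp1 fell under the rescaled floor and were raised to it, so 2.99 is limited by that floor. All 6 samples were above their negative control limits, so this target was measured in both groups, and per spike-in count it was 1.64 times its UV level. The spike-in POS_F, of similar counts, itself read 1.56 times its UV count.

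Most genes of similar UV level also read higher. Of 63 genes with UV means of 20 to 100, 48 read higher in every UV plus BMS-202 sample (median log2 1.00). Cxcl10 ranked 12, Cxcl9 16 and Iigp1 30 of the 63 by log2 difference. The median signal of these 63 genes with BMS-202 was 93.6.

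**Figure D3:**
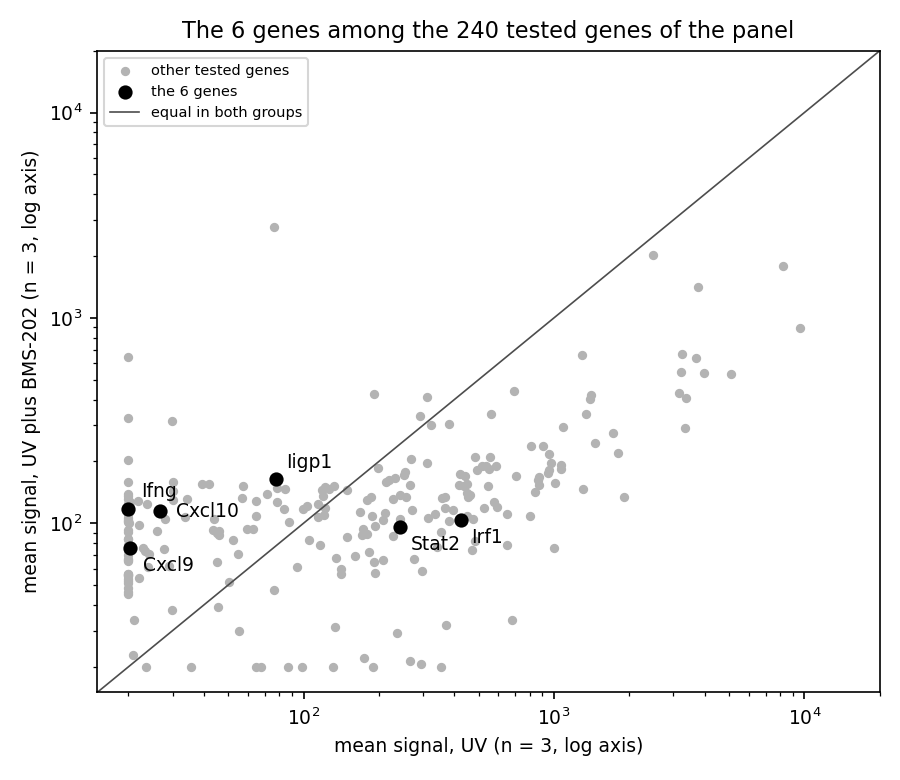
Mean signal with BMS-202 (vertical, n = 3) against mean signal with UV (horizontal, n = 3), both scaled to Gapdh and on log axes, for the 240 tested genes, with the 6 genes in black and a line of equal signal. Ifng, Cxcl9, Cxcl10 and Iigp1 lie above the line among other genes of low UV signal, and Stat2 and Irf1 lie below it among genes of higher UV signal.

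The promoters of the 2 chemokine genes, neighbours on chromosome 5 that rose together, are shown in the same way. The Cxcl10 window (chr5:92348840-92349139, minus strand) holds an ISRE match at positions -213 to -204, and the Cxcl9 window (chr5:92328030-92328329, minus strand) holds neither motif as searched.
Cxcl10: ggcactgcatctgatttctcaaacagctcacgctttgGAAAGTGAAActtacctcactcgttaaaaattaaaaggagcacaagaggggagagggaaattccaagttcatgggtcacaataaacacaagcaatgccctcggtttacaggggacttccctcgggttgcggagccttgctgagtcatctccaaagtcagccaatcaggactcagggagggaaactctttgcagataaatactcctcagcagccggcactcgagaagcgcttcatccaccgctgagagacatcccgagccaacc
Cxcl9: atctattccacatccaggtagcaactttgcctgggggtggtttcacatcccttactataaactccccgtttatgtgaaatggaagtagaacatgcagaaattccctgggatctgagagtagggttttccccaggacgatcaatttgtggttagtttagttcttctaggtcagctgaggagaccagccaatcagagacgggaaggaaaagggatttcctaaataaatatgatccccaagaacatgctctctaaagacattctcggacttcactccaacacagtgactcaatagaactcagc

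A ratio of 2 measured values within a sample does not depend on how that sample was scaled. This holds for the 6 ratios among Cxcl10, Iigp1, Stat2 and Irf1. The 9 with Ifng or Cxcl9 hold UV values at the floor, which is set on the scaled values, and give bounds only. The UV values of Cxcl10 lay only just above their limits, so its ratios rest on UV counts near background. The ratio of Cxcl10 to Irf1 was 1.11 on average in UV plus BMS-202 samples and 0.0626 in UV samples, a 17.6-fold difference. On the log2 scale it was 0.33, -0.07 and 0.16 with BMS-202 and -3.99, -4.00 and -4.00 with UV. The ratio of Iigp1 to Irf1 was 8.75-fold higher with BMS-202, that of Cxcl10 to Stat2 10.9-fold and that of Iigp1 to Stat2 5.41-fold. Each of these 4 ratios was higher in all 3 UV plus BMS-202 samples than in all 3 UV samples, and no scaling factor enters them. Across the panel, genes with UV means of 20 to 100 had a median log2 difference of 1.00. Those of 100 to 300 had -0.81 and those of 300 to 1000 had -1.80. Ratios of genes low with UV to genes high with UV therefore rose widely. The share of other gene pairs that rose or did not overlap was not computed. With values below 45.3 set to that limit the log2 difference of Cxcl10 over Irf1 was 3.37 in place of 4.14, and with the mean negative control subtracted it was 4.91. With the UV values of Ifng set to 26.6, the ratio of Ifng to Irf1 was at least 17.97-fold higher and that of Ifng to Stat2 at least 11.1-fold higher. At a limit of 45.3 the 2 log2 differences were 3.40 and 2.70, against 4.58 and 3.88 as listed.

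Between the 2 transducers and among the targets the ratios moved less. The ratio of Stat2 to Irf1 was 1.62-fold higher with BMS-202, with log2 ratios of 0.05, -0.12 and -0.28 in UV plus BMS-202 samples, against -0.77, -0.79 and -0.87 in UV samples. The ratio of Cxcl10 to Iigp1 was 2.02-fold higher (log2 0.24 in place of 1.01 with the limit of 45.3), and the ratio of Cxcl10 to Cxcl9 overlapped between the groups (exact permutation p = 0.4). Of 15 ratios 14 did not overlap, each with an exact two-sided permutation p of 0.1, the smallest 3 against 3 samples can give, and 0.107 after adjustment over the 15. The share over all gene pairs was not computed, and 95% of single tested genes did not overlap either. Of the 15, 9 hold UV values at the floor. This count therefore does not set the 6 genes apart. The ratio of Iigp1 to Ifng was 2.05-fold lower with BMS-202, with UV values of Ifng set to 26.6. Its log2 difference was -0.27 in place of -1.45 with the limit of 45.3. The highest of the 6 values was 1.91 to 2.37 times the lowest in UV plus BMS-202 samples, against at least 15.6 to 16.3 times in UV samples. Signals lay closer together across the panel too. The median with BMS-202 was 93.6, 108 and 152 for genes with UV means of 20 to 100, 100 to 300 and 300 to 1000. Probes of different genes count with different efficiency, so these spans describe how the ratios changed and not which gene had more RNA.

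**Figure D4:**
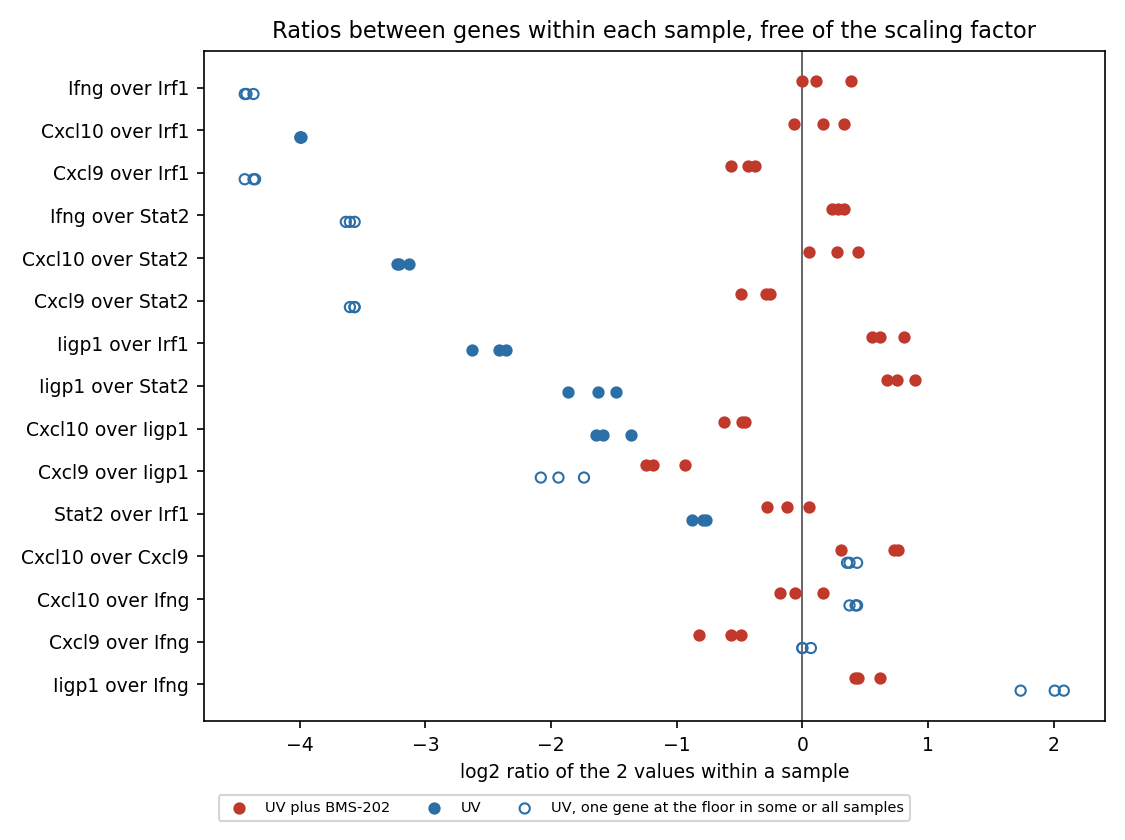
Log2 ratio of 2 genes within each sample for the 15 pairs, with the 3 UV plus BMS-202 samples in red above the 3 UV samples in blue (open where a gene was at the floor of 20 in some or all UV samples). The 8 ratios of Ifng or a target to Irf1 or Stat2 lie between -4.44 and -1.48 with UV and between -0.57 and 0.90 with BMS-202.

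Other genes of the pathway were also split. Of 26 other interferon gamma responsive genes listed 6 were measured and tested, with 4 called higher, 1 lower and 1 not past the threshold (median log2 0.84), against 38.3% higher and 55% lower over all tested genes. The 4 higher genes had UV means under 100, where most genes read higher. Across the 6 scalings 3 or 4 were called higher and 1 or 2 lower. H2-Eb1, which encodes an MHC class II beta chain that interferon gamma induces through a class II transactivator, averaged 134 ± 29.4 with BMS-202 and 1904 ± 5.48 with UV, 14.2-fold lower. H2-Ea-ps, a class II pseudogene, averaged 55.4 ± 1.84 with BMS-202 and was at the floor with UV. Nos2, the inducible nitric oxide synthase of activated macrophages, averaged 128 ± 20.02 with BMS-202 and 21.8 ± 3.07 with UV. The chemokine gene Ccl5 did not pass (22.9 ± 4.99 with BMS-202 and 20.8 ± 0.68 with UV, adjusted p = 0.380). Antigen-presenting cells respond to interferon gamma and carry class II genes, and of 7 measured macrophage and antigen-presenting cell markers 3 were called higher, 3 lower and 1 did not pass (median log2 0.22, turning to -0.15 with spike-in scaling). Their summed signal was 1112 to 1133 in UV plus BMS-202 samples and 4295 to 4453 in UV samples, with Itgb2, the leukocyte integrin beta chain gene, at 221 ± 10.8 with BMS-202 and 1804 ± 60.6 with UV, and Chi3l3 at 314 ± 7.29 with BMS-202 and 29.8 ± 3.98 with UV. This count depends on the markers listed, and the 7 include Csf1, a growth factor gene, and the pseudogene H2-Ea-ps. Mrc1, Cd163 and Trem2, macrophage genes not on that list, were lower relative to Gapdh (log2 -2.44, -1.02 and -2.15). Nos2, also not on it, was higher. The part of macrophages and antigen-presenting cells in the differences of the 6 genes was not tested.

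Type I interferon ligands and the genes they induce share targets with interferon gamma and use Stat2. Of 15 listed and tested, 12 were called higher and 3 lower (median log2 1.25), against 38.3% higher and 55% lower over all tested genes. The 15 are not all ligands or induced genes. They include the regulatory factor genes Irf3 and Irf7, called higher, and Irf5, called lower. Of the 15, 9 had UV means of 20 to 100, where 48 of 63 genes read higher in every UV plus BMS-202 sample, and 2 were listed at 20 in all UV samples. The lower genes Oas1a, Ifi27l2a and Irf5 were named after their values were seen, and none of the 15 was called lower with either housekeeping scaling, whereas spike-in scaling gave 10 higher and 4 lower. Mx1, an antiviral GTPase, averaged 2765 ± 128 with BMS-202 and 76.3 ± 6.22 with UV. Ifna1 and Ifnb1, ligands that signal through Stat2, averaged 649 ± 44.8 and 106 ± 4.41 with BMS-202 and were listed at 20 in all UV samples. Ifi27l2a fell 2.73-fold, next to the 2.53-fold fall of Stat2.

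The genes closest to each member over the 6 samples were found by the Euclidean distance between log2 profiles, each centred on its own mean, among 247 other genes. Nearest to Ifng were Il9 (distance 0.16) and Ifnb1 (0.21), both at the floor in all UV samples. Nearest to Stat2 were Csf1 (0.07), which encodes a macrophage growth factor, and Areg (0.13), an epidermal growth factor receptor ligand gene. Nearest to Irf1 were Trem2 and Mmp3 (0.18 each), and nearest to Cxcl9 were Cxcr1 (0.18) and Il7 (0.22). Il12b (0.12) and Pik3c2g (0.24) lay nearest to Cxcl10, and Cd40 (0.26) and Il4 (0.27) nearest to Iigp1. With 2 groups, this distance mostly ranks genes by how alike their group differences are.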

How the data were processed

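Column-extracted RNA of 6 skin samples was counted with an nCounter inflammation panel, per the labels' protocols. The deposited values are a signal per gene. The values themselves show probe counts multiplied by 1 factor per sample that makes Gapdh 6417 in all 6, with values under 20 written as 20, while the positive and negative control rows are unscaled counts. For software, background handling and the choice of reference: not given in the sources used here. The treatment field of the labels sets the groups.

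Dividing by the step between values gave whole counts for 100% of gene values above 20 (tolerance 0.006 plus a millionth of the value), used for depth and limits only. Differences were tested in limma 3.58.1 (R 4.3.3; lmFit, then eBayes with trend) on log2(value + 1), which understates changes of low genes, over 240 endogenous genes above 20 in at least 3 samples, adjusted by Benjamini-Hochberg over all of them at 0.05. Folds are ratios of group means, and a fold of Ifng or Cxcl9, under the negative control limit with UV, uses the highest UV limit (26.6) and is a lower bound. Ratios used exact permutation tests. The labels do not say that the replicate numbers in the sample titles pair the samples, and the main fit used no pairing. The deviations of same-numbered samples from their group means correlated at 0.02, -0.03 and 0.01 over the tested genes. Replicates differed by little more than counting noise (chi-square per degree of freedom 1.10 with BMS-202 and 1.11 with UV, p = 0.0672 and 0.0636) and were kept as 3 per group. Deviations of that size could not show a pairing.

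Named genes were the 6 members, the 2 genes nearest to each, the 3 genes of each list with the smallest p, and the housekeeping genes. Il18rap, Cd40lg, Ccl5, Mrc1 and Cd163 were added after their values were seen. So were Il12b among the inducers, Trem2 among macrophage genes and Itgb2 beside the T and NK cell markers. The members and lists were chosen with earlier results of these data known. Promoters are from RefSeq tables and covered 5 of the 6 members; Iigp1 has no sequence shown. Alternatives were other scalings, filters, pseudocount, moderation, a replicate block, background handling and leaving out each sample. With scaling to housekeeping genes, spike-ins or the panel median, values below the highest rescaled floor of the 6 samples were raised to it.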

Additional observations from a re-analysis of the deposited data

How the results depend on the processing

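Of 114 repeats of the 6 log2 differences under other settings, 110 kept their direction and their call. The 110 include 19 each for Ifng and Cxcl9, whose direction the filter largely fixed, so these do not test direction. The other 4 were Stat2 and Irf1 with housekeeping scaling, at 0.92 and 0.23 with the 6 genes and 1.37 and 0.68 with the 5 other than Gapdh. These scalings also moved the panel's calls to 184 higher and 34 lower with the 6 genes and 202 higher and 15 lower with the 5. The filter, pseudocount, moderation and replicate block changed no call of the 6 genes, and with the block Ifng was at 2.49 (adjusted p = 7.28e-07). Leaving out each sample gave 87 to 94 genes higher and 132 to 134 lower, and log2 differences of 2.42 to 2.53 for Ifng, -1.37 to -1.29 for Stat2, -2.06 to -1.98 for Irf1, 1.80 to 1.87 for Cxcl9, 2.01 to 2.17 for Cxcl10 and 0.99 to 1.15 for Iigp1. With the floor raised to the highest negative control limit of 45.3, which covers the UV values of 3 of the rising genes, Ifng was 1.35, Cxcl9 0.73 and Cxcl10 1.32. The ratio of Cxcl9 to Iigp1 then turned from 0.80 to -0.36. The raised floor lifts the UV values of Cxcl9 and not those of Iigp1, so it could only lower that difference. It did not have to turn it: Cxcl10 over Iigp1 fell from 1.01 to 0.24. For the log2 differences of single genes the raised floor was not planned. Subtracting the mean negative control, chosen after seeing the data, gave 3.29, 2.45, 2.52 and 1.11 for Ifng, Cxcl9, Cxcl10 and Iigp1. Of 120 repeats of the 15 ratios 96 stayed within 1 SD, 23 moved further without turning and 1 turned. Leaving out 1 of 3 samples cannot move a group mean by 1 SD of that group, so those repeats had to stay. They make up most of the 96 and do not test stability. Most ratio repeats with the raised floor or with subtraction moved by more than 1 SD. With the raised floor the ratios of Ifng and Cxcl10 to Irf1 were 3.40 and 3.37, and with subtraction 5.75 and 4.91. The planned tests on recovered counts were not run, because values at the floor have no count. The floor and the negative probe background limit Ifng and Cxcl9 in UV skin, where they lie under the negative control limit.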
